A study of Mus musculus with 21 samples.

Results

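The genes described here encode core proteins of the spliceosome and the SR proteins that guide it. They were taken by symbol from the expression tables as every entry beginning with Snrp other than Snrpn, every entry beginning with Sf3a or Sf3b, and every entry named Srsf or Sfrs followed by a digit. The rule found 40 entries among the 42760 of the Peril table and the 42760 of the Fendrr table, and the same 40 among the 40770 of the linc-Brn1b table. No expression value was used to choose them. Of these, 4 encode proteins particular to the U1 and U2 particles, 7 the Sm ring, 3 the SF3A complex, 5 the SF3B complex and 11 SR proteins. A further 3 entries, Sfrs3, Sfrs7 and Sfrs11, lie at the loci of Srsf3, Srsf7 and Srsf11 under older symbols, and 7 are SR-related genes. By GENCODE these are Sfswap (entry Srsf8), Srek1 (entry Srsf12), Scaf4 (entry Srsf15), Srek1ip1 (entry Sfrs12ip1), Sugp2 (entry Sfrs14), Clasrp (entry Sfrs16) and Sfrs18. Together the entries stand for 37 genes on 16 chromosomes, 25 entries on the plus strand and 15 on the minus strand.

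The spliceosome removes introns from pre-mRNA. Its U1, U2, U4 and U5 particles are each built on a small nuclear RNA held in a ring of Sm proteins, and U1 and U2 recognise the 5′ splice site and the branch point. SF3A and SF3B are parts of the U2 particle, and within SF3B the large protein Sf3b1 grips the branch point region. SR proteins carry an RNA recognition domain and a tail rich in arginine and serine, bind exons and help to recruit these particles, and so influence which exons are kept. In the developing brain, choices of alternative exon change as neurons differentiate, and SR proteins are among the factors known to take part.

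RNA was sequenced from mice in which the locus of a long intergenic noncoding RNA was homozygously replaced by a lacZ reporter cassette, and from wild type mice. The knockout alleles also carried a neomycin cassette flanked by loxP sites under a human ubiquitin promoter, and were made in hybrid 129S6S v/Ev and C57BL/6N embryonic stem cells and crossed once to C57BL/6J. The groups were whole brain at E18.5 (embryonic day) of the Peril strain, which the labels name linc-Sox2, lung at E14.5 of the Fendrr strain, which they name linc-Foxf1a, and telencephalon at E13.5, telencephalon at E15.5 and whole brain at P7 (postnatal day) of the linc-Brn1b strain. Libraries numbered 2 in each of the 10 groups, apart from linc-Brn1b knockout telencephalon at E15.5, where the labels list 3 and the study's text 2. The tables give 1 value per group in FPKM (fragments per kilobase of transcript, scaled to the fragments mapped), pooled over its libraries. The spread between animals and the read depth are therefore unknown, no test could be run on any difference, and each difference below compares 2 pooled values. Differences are on the log2(FPKM + 1) scale, second group minus first, for entries with a mean of at least 1 FPKM over both groups. A difference was counted as past the fold at 1.2-fold between genotypes and at 1.5-fold between ages. In each comparison 38 of the 40 entries passed the filter, and Srsf15 and Sfrs12ip1 did not.

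Several features of the groups touch the values below. The entry at the Fendrr locus was at 38.4 FPKM in wild type lung and 0.0450 FPKM in knockout lung, and linc-Brn1b was at 0.799 to 2.50 FPKM in wild type and listed at 0 in the knockout at each age. For Peril and Fendrr, which value is wild type was inferred from the order of groups in the linc-Brn1b comparisons. The entry linc-Atp11b-4 at the Peril locus lies partly outside the deletion. It was at 0.0109 FPKM in the Peril group taken as wild type against 4.65 FPKM in the group taken as knockout. These values go against the inferred order, and the cause was not tested. Directions in the Peril comparison are given by that order. The 4 genes of the Y chromosome examined were higher in the group taken as knockout in the Peril brain, at E15.5 and at P7 and lower in it in lung and at E13.5, so sex and genotype cannot be told apart. The 6 telencephalon markers summed to 472 FPKM in wild type at E13.5 and to 0.687 FPKM in wild type lung, and the 6 lung markers to 968 FPKM in wild type lung. The linc-Brn1b knockout group at E13.5 stood apart from the other groups by transcript length. Its difference from wild type correlated with transcript length across 11828 genes at a Spearman coefficient of 0.43, against -0.21 to 0.18 in the other genotype comparisons, and short transcripts were lower in it. Genes within a group share its libraries and are not independent replicates, so this is given as a description.

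The coding sequence of Snrpg is printed because this gene was among the 3 with the largest differences at E13.5, with Snrpe and Snrpd2, and because transcript length bears on that comparison. Snrpg and Snrpe encode small Sm proteins, of which E and G sit side by side in the ring. In NCBIM37 (mm9), Snrpe lies on the minus strand at chr1:135500448-135506868 and Snrpg on the plus strand at chr6:86321534-86328896. The coding sequence of Snrpg, joined from its coding exons in GENCODE, spans 231 bases and has its start and stop codons in capitals.
Snrpg: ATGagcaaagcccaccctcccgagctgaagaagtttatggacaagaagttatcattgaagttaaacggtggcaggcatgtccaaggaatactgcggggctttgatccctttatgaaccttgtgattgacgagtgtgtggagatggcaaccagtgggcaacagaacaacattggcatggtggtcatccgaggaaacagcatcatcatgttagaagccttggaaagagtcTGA

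Promoters of 32 of the 37 genes were found in RefSeq (GRCm38.p6), each with 250 bases before the transcription start and 50 after it. The letters CCGGAAG, the core of the motif bound by ETS factors, were found on either strand in at least 1 promoter of 16 of these 32 genes, against 9.93% of 27025 genes. GGGCGG, the GC box, was present in 22 (68.8%, against 38.2%), CCAAT in 10 (31.3%, against 41.1%) and TATAAA in 5 (15.6%, against 15.7%). All 4 motifs were searched on both strands, matches of different motifs may overlap, and a match describes letters and not binding. The comparison genes were not matched to the members by promoter base composition, expression or number of promoters. The promoters of Snrpe (chr1:133610231-133610530, minus strand), Snrpg (chr6:86371290-86371589, plus strand) and Srsf5 (chr12:80945249-80945548, plus strand) are shown on the strand of the gene, with CCGGAAG and its reverse complement in capitals. They belong to these 2 Sm genes and to the SR gene with the largest difference at P7. Of the 5 Sm ring genes with a promoter found, only these 2 held CCGGAAG, and Snrpd2 did not.
Snrpe: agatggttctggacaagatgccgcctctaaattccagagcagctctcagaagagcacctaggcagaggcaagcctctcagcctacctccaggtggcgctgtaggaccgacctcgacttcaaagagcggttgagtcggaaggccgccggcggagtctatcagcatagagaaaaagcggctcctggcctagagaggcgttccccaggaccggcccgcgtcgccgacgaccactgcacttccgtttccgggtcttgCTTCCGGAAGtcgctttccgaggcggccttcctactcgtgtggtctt
Snrpg: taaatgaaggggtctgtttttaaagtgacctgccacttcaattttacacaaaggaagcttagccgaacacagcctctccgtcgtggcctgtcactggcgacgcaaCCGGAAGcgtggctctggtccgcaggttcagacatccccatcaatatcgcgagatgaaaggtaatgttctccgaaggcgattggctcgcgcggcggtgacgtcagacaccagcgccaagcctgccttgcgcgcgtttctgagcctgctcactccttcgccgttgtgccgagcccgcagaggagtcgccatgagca
Srsf5: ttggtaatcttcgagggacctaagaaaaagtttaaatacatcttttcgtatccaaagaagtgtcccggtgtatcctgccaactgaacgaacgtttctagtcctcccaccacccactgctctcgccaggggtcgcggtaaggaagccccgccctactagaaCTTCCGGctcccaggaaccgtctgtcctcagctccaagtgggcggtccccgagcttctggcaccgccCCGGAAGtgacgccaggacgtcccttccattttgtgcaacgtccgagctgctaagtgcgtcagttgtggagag
In the promoter of Snrpe a match on each strand overlapped to form a continuous run just after the start site. Those of Srsf5 lay apart, beginning 23 and 90 bases before the start site.

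Sm ring genes had the highest median level of the classes in 9 of the 10 groups, and among the SR genes Srsf5, Srsf2 and Srsf3 were the most abundant. Snrpg, Snrpd2 and Snrpe held the first 3 ranks among the 40 entries in wild type telencephalon at both ages and in wild type lung. In wild type, Snrpg was at 236 FPKM in E18.5 brain, 512 FPKM in lung, 417 FPKM in telencephalon at E13.5 and 401 FPKM at E15.5, and 126 FPKM in P7 brain. Snrpd2, the Sm protein D2, was at 272, 389, 297, 306 and 216 FPKM in the same order of groups. Within the ring, Snrpf was lowest in all 10 groups, at 18.6 to 93.4 FPKM. Among SR genes, Srsf5 was at 122 FPKM in wild type E18.5 brain, 298 FPKM in lung, 177 FPKM and 178 FPKM in telencephalon, and 197 FPKM in P7 brain, where only Snrpd2 was above it. Srsf13b, annotated as Srsf12 by GENCODE, was the lowest SR gene in every group, at 12.7 FPKM in wild type E18.5 brain, 1.30 FPKM in wild type lung and 3.60 FPKM in wild type E13.5 telencephalon, from 3 tables normalised separately. The SF3A genes were at 14.1 to 64.4 FPKM in wild type brain and telencephalon, and the highest SF3B gene was Sf3b2 in 9 of the 10 groups and Sf3b1 in the remaining wild type group at P7. Srsf15 and Sfrs12ip1 did not exceed 1.01 FPKM in any group. Summed over all 40 entries, the set made up 0.941% of all FPKM in wild type telencephalon at E13.5, 0.858% at E15.5 and 0.490% in P7 brain.

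**Figure D1:**
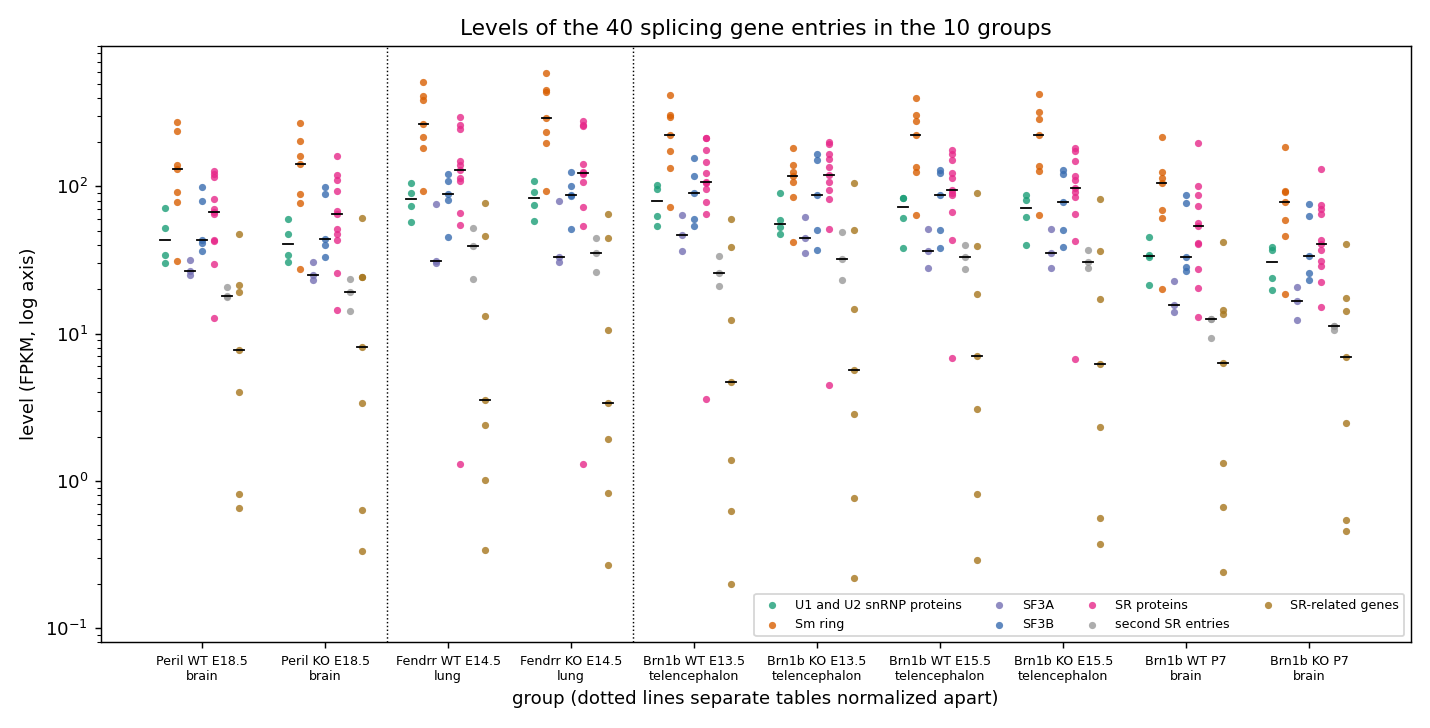
FPKM of the 40 entries, on a log axis, in the 10 groups, by class, with 1 pooled value per group and no error. Short lines mark class medians, dotted lines separate the tables, and Sm ring medians lie highest outside the knockout group at E13.5, with Srsf15 and Sfrs12ip1 at the bottom.

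At E13.5, the Sm ring genes were lower in linc-Brn1b knockout telencephalon than in wild type, all 7 of them past 1.2-fold, whereas none of 3 SF3A, 2 of 5 SF3B and 4 of 11 SR genes were past it. Over the 13507 entries that passed the filter, 16.2% were past it higher and 14.9% lower. Snrpe was at 306 FPKM in wild type against 117 FPKM in knockout, a log2 difference of -1.38. Snrpd2 was at 297 and 125 FPKM (-1.24) and Snrpg at 417 and 184 FPKM (-1.18). These were the largest differences of the set, at 0.383, 0.422 and 0.440 times the wild type level. Snrpf (-0.77), Snrpb (-0.71), Snrpd1 (-0.67) and Snrpd3 (-0.67) followed. Summed FPKM of the ring was 1623 in wild type and 798 in knockout, or 49.2%, against 98.9% for the 11 SR genes, 103% for SF3B and 96.3% for SF3A. In bulk tissue, fewer cells of a type and less RNA per cell cannot be told apart.

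Outside the ring, lower members at E13.5 were the U1 protein Snrpc, at 96.4 FPKM in wild type against 58.8 FPKM in knockout (-0.70), the smallest SF3B subunit Sf3b5, at 59.8 and 37.1 FPKM (-0.67), and the SR genes Srsf7 (-0.37), Srsf3 (-0.35) and Srsf9 (-0.34). Higher members were Sfrs18, at 60.1 and 106 FPKM (0.81), Sfrs16 (0.68), Sfrs7 (0.58), Sfrs3 (0.54), Sf3b1 (0.37), Srsf12 (0.37) and Srsf11 (0.33). In all, 7 of 38 members were past the fold higher and 12 lower. The members' median was -0.06, against 0.06 over all entries. When each group was rescaled to the same summed FPKM, every difference moved by 0.19, 15 members were past the fold higher and 9 lower, and the medians of SF3A and SF3B moved from -0.05 each to 0.13 and 0.14, so their direction depends on the scaling. Of the SR genes 6 were then past the fold higher and none lower. The Sm ring stayed past the fold lower in 7 of 7, with a median of -0.60 in place of -0.77.

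**Figure D2:**
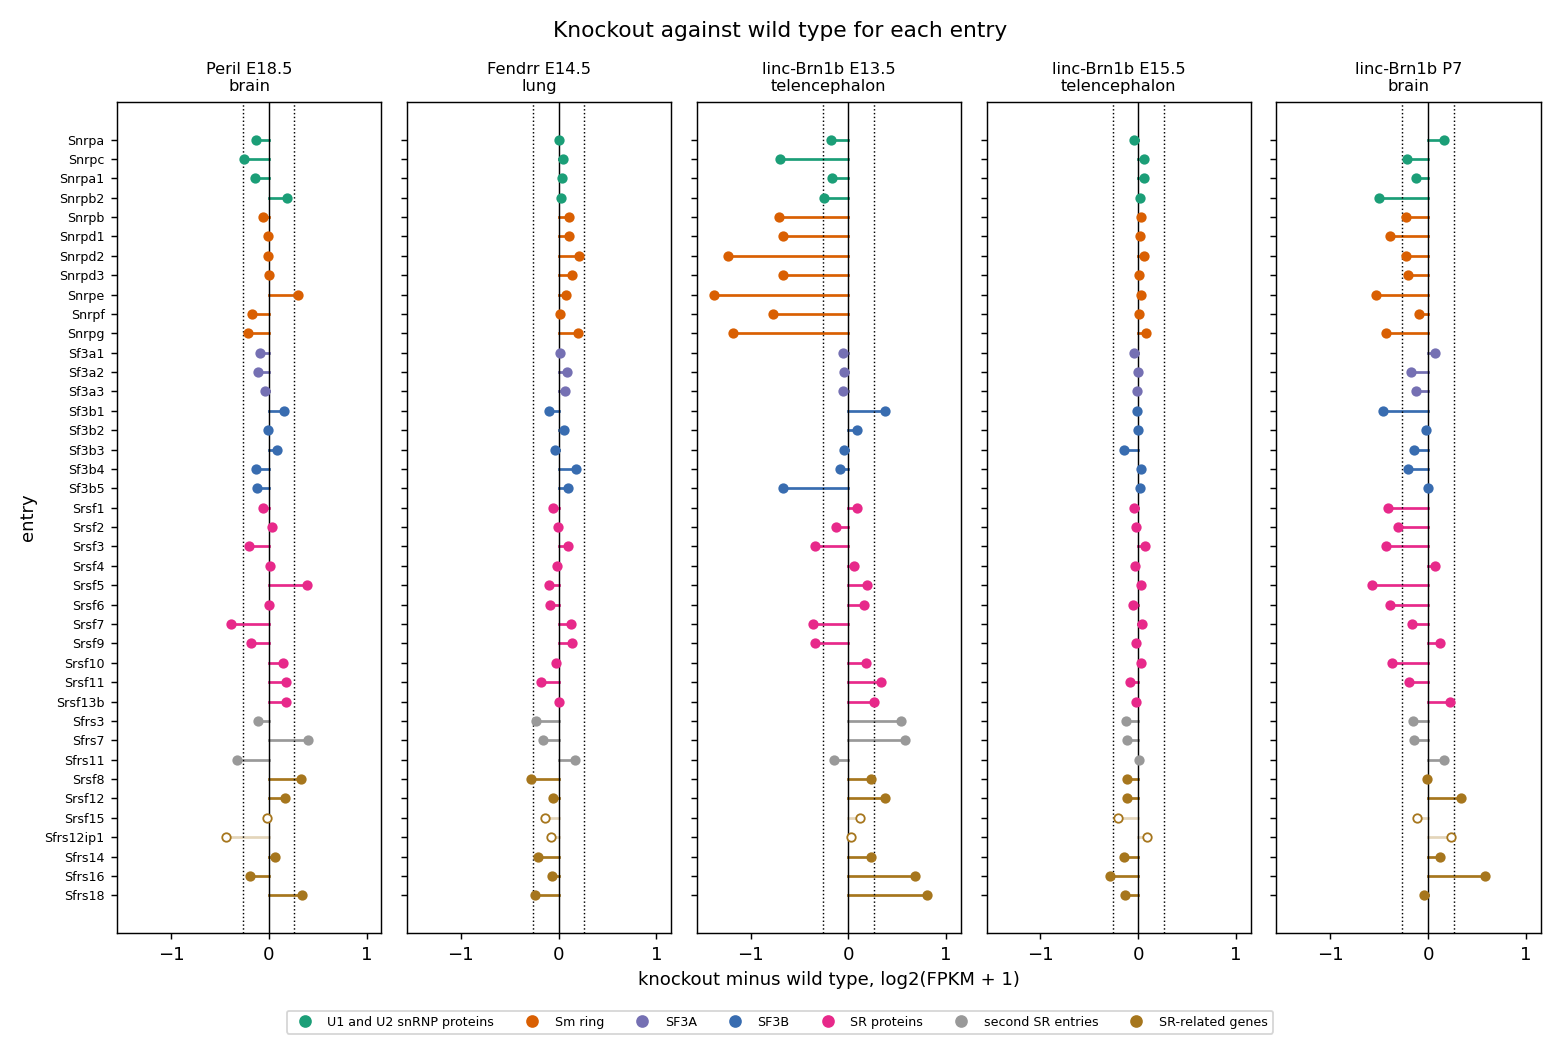
Log2 difference in FPKM + 1, knockout minus wild type, of each member in the 5 genotype comparisons, by class, with 1 value per group and no error. At E13.5 all 7 Sm ring genes lie between -1.38 and -0.67, and at E15.5 the members lie near 0.

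Short transcripts were lower throughout that comparison, and the Sm ring genes are short. Their transcripts have a median length of 613 bases (503 to 1161), against 6192 bases for Sf3b1. Among 1467 genes with transcripts under 1 kb the median difference was -0.28 and 50.9% were past the fold lower, whereas genes over 4 kb had a median of 0.15. Among 355 other genes under 1 kb with a mean of at least 50 FPKM, the median was -0.65 and 74.1% were past the fold lower. Across the 38 members the Spearman coefficient of the difference with length was 0.73. After the median of genes of similar length was subtracted, all 7 Sm genes remained past the fold lower, with a median of -0.53 (-1.10 to -0.39). That subtraction matched length alone and not level. Before it, the ring's median was -0.77, close to the -0.65 of the 355 short genes at a high level. The cause of the length trend was not tested, and depth and RNA quality per library are unknown.

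**Figure D3:**
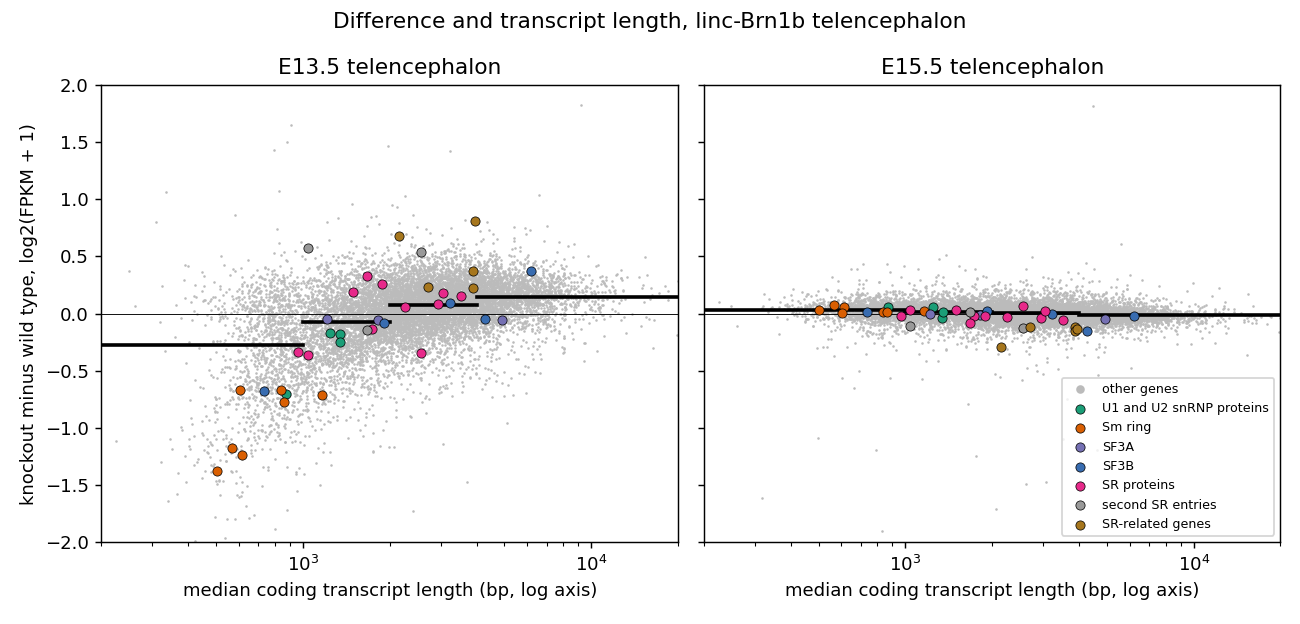
Log2 difference, knockout minus wild type, against transcript length on a log axis, for members by class and for all other genes in grey, at E13.5 and E15.5 of linc-Brn1b. At E13.5 shorter genes lie lower, with the Sm ring at the short end, at E15.5 the members lie near 0 at every length, and 10 other genes at E13.5, 8 at E15.5 and 3 by length fall outside the axes.

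The LSm ring, whose small proteins hold U6, was lower in 7 of 7 past the fold at E13.5 (median -0.79), for example Lsm7 at 112 FPKM in wild type against 47.5 FPKM in knockout. The exon junction complex, which is laid down on spliced mRNA, had 4 of 7 past the fold lower (-0.32), with Magoh at 109 and 57.8 FPKM. None of the 7 spliceosomal RNA helicases, which remodel the particles, was past it in either direction (0.14). Of 13 kinases and coactivators of SR proteins, 5 were past it higher (0.19), among them Clk4 (0.59) and Clk1 (0.58), kinases that phosphorylate SR proteins. Tri-snRNP proteins had 4 of 16 past it lower and U2 auxiliary factors 2 of 8. U1-70K and minor spliceosome genes had 2 of 8 past it lower and 2 higher. The Prp19 complex had 2 of 11 past it lower and the SMN complex 1 of 12. These lists were not corrected for transcript length, and 50.9% of genes under 1 kb were past the fold lower in this comparison. The part of length in the order of the lists was not tested. The 6 cycling cell markers summed to 790 FPKM in wild type against 678 FPKM in knockout, with 3 of 6 past the fold lower. The 3 neuron markers, all past the fold higher, summed to 99.8 and 139 FPKM, and the 3 endothelial markers, 2 of them past it lower, to 29.0 and 20.7 FPKM. The part of these cell types in the differences was not tested.

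At E15.5 in the same strain, 1 member was past the fold between genotypes. The Sm ring genes were all slightly higher in knockout, with a median of 0.03, and Snrpe was at 280 FPKM in wild type against 286 FPKM in knockout. Snrpg was at 401 and 422 FPKM and Snrpd2 at 306 and 318 FPKM. Medians of SF3A, SF3B and SR genes were -0.01, -0.01 and -0.02. Of the 38 members none was past the fold higher, and the 1 lower was Sfrs16, at 3.08 and 2.33 FPKM (-0.29). Of 13521 entries 0.939% were past the fold higher and 1.07% lower. Summed over the members, FPKM was 3732 in wild type and 3747 in knockout, and the choroid plexus marker Ttr was at 231 FPKM in wild type against 1.39 FPKM in knockout.

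In P7 brain, several SR genes, Sm genes and Sf3b1 were lower in linc-Brn1b knockout. Srsf5, at 197 FPKM in wild type against 131 FPKM in knockout, had the lowest difference (-0.58). Snrpe was at 114 and 78.3 FPKM (-0.53), and Snrpb2, a U2 protein, at 34.4 and 24.0 FPKM (-0.50). Sf3b1 was at 87.0 and 62.9 FPKM (-0.46), in the opposite direction to E13.5. The other SR genes past the fold lower were Srsf3 (-0.43), Srsf1 (-0.41), Srsf6 (-0.39), Srsf10 (-0.37) and Srsf2 (-0.31), so that the class had 6 of 11 past it, and the Sm ring had 3 of 7, with Snrpg (-0.43) and Snrpd1 (-0.39) beside Snrpe. Higher members were Sfrs16 (0.58) and Srsf12 (0.34). In all, 2 of 38 members were past the fold higher and 11 lower, and of 14175 entries 14.3% were past it higher and 12.3% lower. The members' median was -0.16, against 0.01 over all entries.

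Summed FPKM at P7 was 80.4% of wild type for the Sm ring and 78.4% for the SR genes. The Spearman coefficient of the difference with length was 0.14 over 12564 genes and 0.21 over the members. Among 381 other genes under 1 kb with a mean of at least 50 FPKM, the median was -0.10. Of these, 20.5% were past the fold lower and 5.25% higher. The median over SR genes was -0.31, and the part of length was not tested. Among the other lists, 3 of 13 SR kinases and coactivators were past the fold lower and 1 higher, with a median of 0.05, the lowest of them Tra2b at 82.6 FPKM in wild type against 49.96 FPKM in knockout, a splicing activator related to SR proteins, and the highest Srpk1 at 19.8 and 26.01 FPKM. The LSm ring had 3 of 7 lower and the tri-snRNP 3 of 16. Helicases and exon junction genes each had 2 of 7 past the fold lower. U2 auxiliary factors had 1 of 8 lower, and U1-70K and minor spliceosome genes 1 of 8. The Prp19 complex had 1 of 11 lower and the SMN complex 0 of 12. All 6 cycling cell markers were past the fold lower, summing to 117 FPKM in wild type against 72.8 FPKM in knockout. The 6 hindbrain and cord markers summed to 83.7 and 42.2 FPKM with Hoxb8 listed at 0 in knockout, the 3 oligodendrocyte markers to 448 and 252 FPKM and the 3 astrocyte markers to 222 and 150 FPKM. The 3 neuron markers summed to 587 and 748 FPKM. Their part in the lower spliceosome genes was not tested.

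In E18.5 brain of the Peril strain, 7 members lay past the fold, most of them SR or SR-related. Srsf5 was at 122 FPKM in the group taken as wild type against 161 FPKM in the group taken as knockout (0.40). Snrpe was at 131 and 161 FPKM (0.30), the only Sm gene past the fold, and Srsf7 at 66.9 and 51.1 FPKM (-0.38). Sfrs7 (0.40), Sfrs18 (0.34) and Srsf8 (0.33) were also higher, and Sfrs11 (-0.33) lower. Srsf7 and Sfrs7 share a locus, and the sum of that locus differed by -0.18. Locus sums differed by 0.09 for Sfrs11 with Srsf11 and by 0.16 for Srsf8 with Sfswap, so none of these sums was past the fold. That gave 5 of 38 past the fold higher and 2 lower, with 6.96% and 5.24% of 14405 entries. The members' median was -0.01, and summed FPKM of the Sm ring was 99.0% of wild type. SF3A and SF3B had no member past the fold. The cycling cell markers summed to 150 and 124 FPKM, with 4 of 6 past the fold lower. Past it higher were 2 of 3 markers each of neurons (291 and 342 FPKM in sum), oligodendrocytes (23.7 and 29.97 FPKM) and astrocytes (46.9 and 56.4 FPKM), and past it lower were 2 of 3 of endothelium (25.2 and 20.4 FPKM) and 2 of choroid plexus, whose 3 markers summed to 817 and 559 FPKM. The part of these cell types was not tested. Of 13 SR kinases and coactivators 3 were past the fold higher and 1 lower. Among them, Clk1 was at 40.5 and 55.4 FPKM and Tra2a at 63.9 and 51.8 FPKM. U1-70K and minor spliceosome genes had 1 of 8 past the fold higher. No gene of the LSm ring, tri-snRNP, helicase, exon junction, Prp19, SMN or U2 auxiliary lists was past it.

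In E14.5 lung of the Fendrr strain, 1 member was past the fold. Srsf8, the entry at the Sfswap locus, was at 13.1 FPKM in wild type against 10.6 FPKM in knockout (-0.28). Sm ring genes were all higher in knockout, by a median of 0.11, with Snrpg at 512 and 588 FPKM and Snrpd2 at 389 and 451 FPKM, none of them past the fold. Rescaling to the same summed FPKM left 6 of 7 higher. Among 452 other genes under 1 kb with a mean of at least 50 FPKM, the median was also 0.11. After the median of genes of similar length was subtracted, the ring's median was 0.06 (-0.05 to 0.15). Summed over the ring, FPKM was 2071 in wild type and 2290 in knockout. No member was past the fold higher, and 5.34% of 13979 entries were past it higher and 5.58% lower. In this comparison shorter genes were slightly higher, at a Spearman coefficient with length of -0.21 over 12287 genes and -0.62 over the members. None of the genes on the 9 other spliceosome lists was past the fold. The 4 heart markers summed to 215 FPKM in wild type against 684 FPKM in knockout, and their part was not tested.

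Across the 5 genotype comparisons, 13 entries were counted past the fold in none, 2 of them because they failed the filter. The other 11 included Snrpa and Snrpa1 of the U1 and U2 particles, all SF3A genes, Sf3b2, Sf3b3, Sf3b4 and Srsf4. A further 5 were past it in opposite directions in different comparisons, namely Snrpe, Sf3b1, Srsf5, Srsf8 and Sfrs16. Without the Peril comparison, whose direction was inferred, Sf3b1 and Sfrs16 were the 2 left, and with that direction turned the 5 were Sf3b1, Sfrs16, Sfrs18, Sfrs7 and Srsf7. Both counts were chosen after seeing the data. The matching shares over all entries were not counted, so these counts describe the members alone. Comparisons of the same strain share no group, although they share a normalisation.

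The members also differed with age in the linc-Brn1b strain, most of all between E15.5 telencephalon and P7 brain, where age and tissue change together and cannot be told apart. In wild type, 30 of 38 members were past 1.5-fold lower at P7 and 1 higher, and in knockout 33 lower and 1 higher, with 29 of them lower in both genotypes. Of all entries, 27.2% of 14152 were past it lower and 23.5% higher in wild type, and 27.4% of 14109 lower and 24.5% higher in knockout. The members' median was -0.99 in wild type and -1.10 in knockout, against -0.10 over all entries in each. In 32 of 40 entries the lowest of the 3 ages was P7 in both genotypes. Shares of all entries that were lower, or lowest at P7, in both genotypes were not counted. Snrpf was at 63.7 FPKM at E15.5 and 19.97 FPKM at P7 in wild type, or 31.3%, and at 64.3 and 18.6 FPKM in knockout. Snrpg was at 401 and 126 FPKM in wild type and 422 and 93.3 FPKM in knockout. Sf3b3, a large SF3B scaffold protein, kept 32.5% of its E15.5 level in both genotypes.

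In contrast, Srsf13b was the 1 member past the fold higher at P7, at 6.88 FPKM and 12.9 FPKM in wild type and 6.75 FPKM and 15.2 FPKM in knockout. Srsf5 was at 178 and 197 FPKM in wild type and 182 and 131 FPKM in knockout, so its order of ages differed between genotypes, which was not tested. Summed FPKM of the Sm ring at P7 was 46.4% of that at E15.5 in wild type and 36.3% in knockout, and of the SR genes 63.4% and 49.8%. Other lists were lower as well. In wild type all 7 RNA helicases, 12 of 13 SR kinases and coactivators and 12 of 16 tri-snRNP genes were past the fold lower. So were 8 of 11 Prp19 complex genes, 7 of 12 genes of the SMN complex and 6 of 8 U2 auxiliary factors. Exon junction genes had 6 of 7 past it lower, LSm genes 3 of 7, and U1-70K and minor spliceosome genes 3 of 8. Cycling cell markers summed to 407 FPKM at E15.5 and 117 FPKM at P7 in wild type and to 419 and 72.8 FPKM in knockout, and neuron markers to 240 and 587 FPKM in wild type. Their part was not tested. Rescaling moved all differences of this step by 0.11 in wild type and 0.14 in knockout.

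Between E13.5 and E15.5 in telencephalon, the values of each genotype were as follows, and their difference was not tested. The 4 genes of the Y chromosome examined were lower at E15.5 in wild type (median -3.72) and higher in knockout (2.38). Age and sex therefore cannot be told apart in either step. In wild type, 4 members were past 1.5-fold higher, Srsf13b, Sfrs16, Sfrs7 and Sfrs18, and none lower, with a median of -0.13. Of 13539 entries 8.66% were past the fold higher and 8.06% lower. In knockout, 6 members were higher and none lower, all 6 of them Sm genes, and 10.4% and 7.56% of 13569 entries. Snrpe was at 306 and 280 FPKM at these ages in wild type and at 117 and 286 FPKM in knockout. Median difference of the ring was -0.06 in wild type and 0.70 in knockout, and 0.37 in knockout after genes of similar length were subtracted. When groups were rescaled to the same sum, 3 members were past the fold higher and 3 lower in knockout, in place of 6 and 0. The 358 other genes under 1 kb with a mean of at least 50 FPKM had a median of 0.73 in knockout, with 60.1% past the fold higher, close to the value of the ring. This step has the knockout group at E13.5 in common with the genotype comparison above and is no separate evidence. Cycling cell markers were lower at E15.5 in both genotypes, at 790 and 407 FPKM in wild type.

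**Figure D4:**
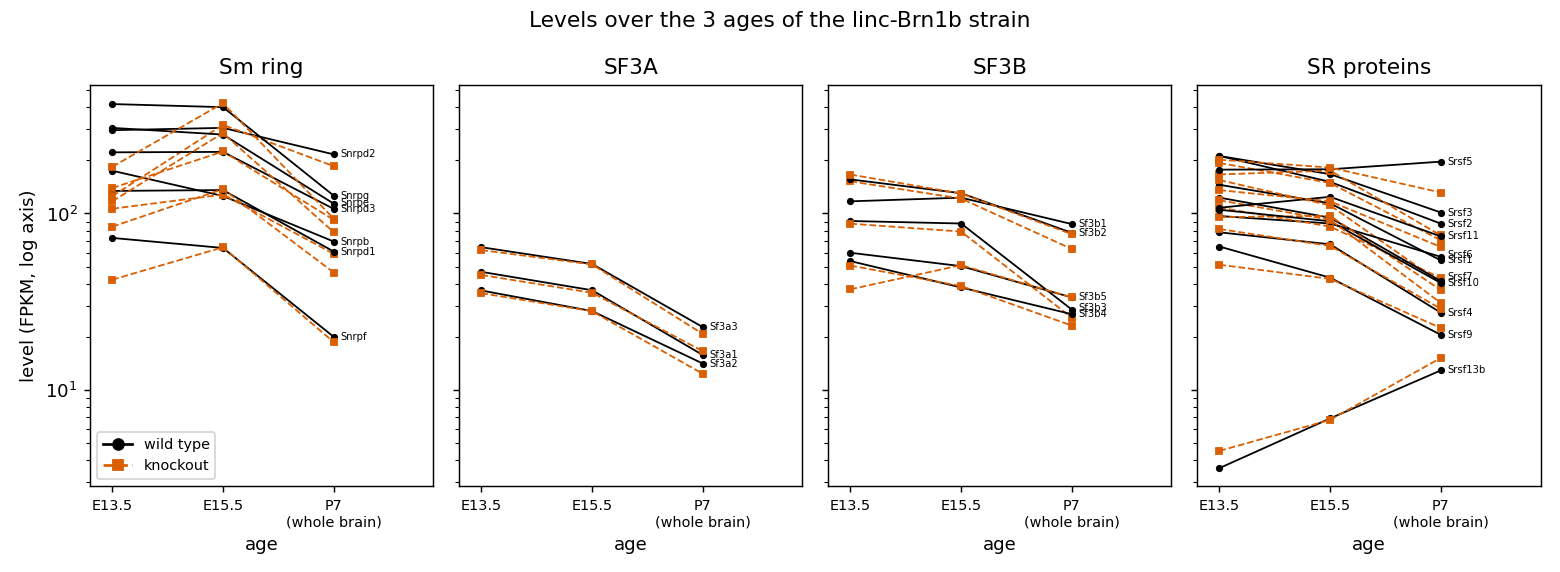
FPKM, on a log axis, of Sm ring, SF3A, SF3B and SR genes in the linc-Brn1b strain at 3 ages, with whole brain at P7, in wild type (solid) and knockout (dashed), with 1 pooled value per group and no error. Sm ring lines are lower in knockout at E13.5, close to wild type at E15.5 and lowest at P7 in wild type, and Srsf13b is highest at P7 in both.

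Some entries that share a locus lay in opposite directions, and the older symbols Sfrs3, Sfrs7 and Sfrs16 are given here with their partners. At the Srsf7 locus at E13.5, Srsf7 was at 123 FPKM in wild type against 95.3 FPKM in knockout while Sfrs7 was at 21.2 and 32.2 FPKM, and their sum was 144 and 127 FPKM (-0.18). At the Srsf3 locus the sum was 245 and 215 FPKM (-0.19), with Sfrs3 at 33.4 and 49.1 FPKM. In the Peril brain Sfrs7 was at 17.6 and 23.6 FPKM beside Srsf7, and their sum was 84.5 and 74.6 FPKM (-0.18). At P7, Sfrs16 was at 1.33 and 2.48 FPKM, whereas its partner Clasrp was at 8.20 and 2.83 FPKM, and the sum of 9.53 and 5.31 FPKM gave -0.74. These loci were chosen after their values were seen. Over 6 loci with an older symbol that passed the filter and 5 genotype comparisons, 30 cases in all, the older symbol and the sum of the locus lay in the same direction in 16, the older symbol was higher and the sum lower in 7, and the reverse held in 7. Sfrs11 at E13.5 was of the last kind, at 25.6 and 23.1 FPKM with a locus sum of 133 and 159 FPKM. In any table, 25 of the 40 members overlapped another named entry.

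**Figure D5:**
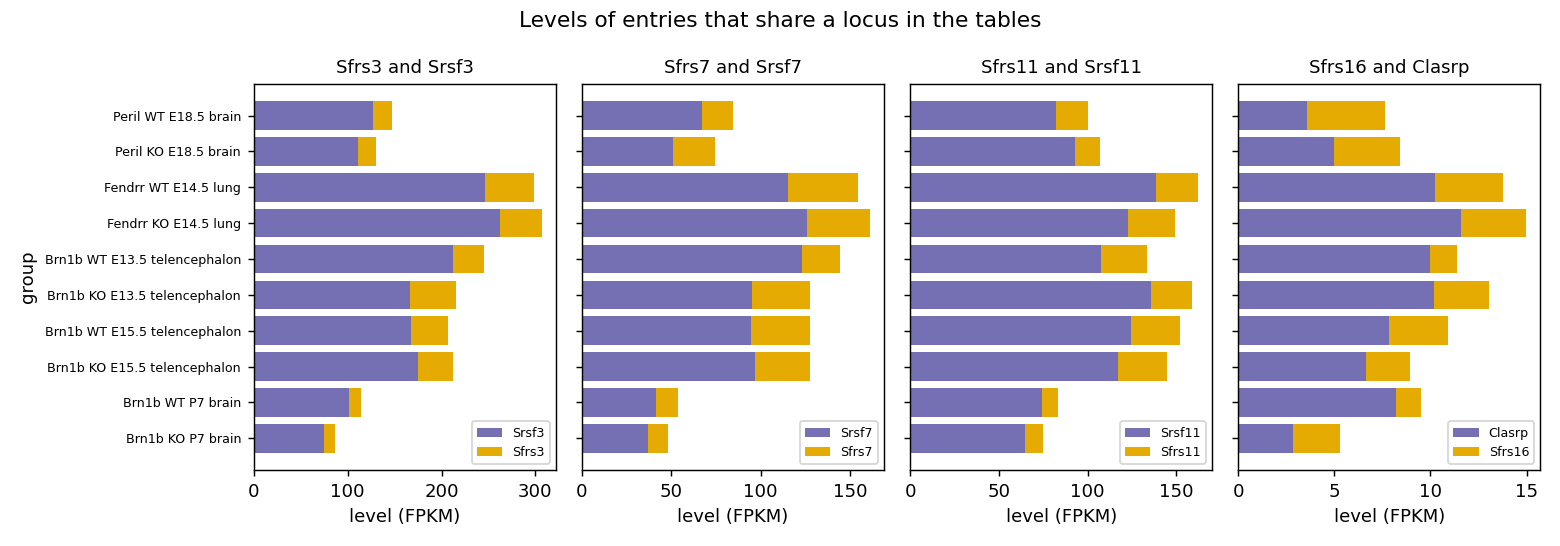
Stacked bars of FPKM from 0, in the 10 groups, for the entries at 4 shared loci, with the older symbol on top of its partner and 1 pooled value per group without error. At E13.5 the knockout bars for the Srsf3 and Srsf7 loci have a longer top segment and a shorter total than the wild type bars.

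Reads can also be split with near-identical copies. Coding sequences of 11 of the 40 entries had a copy elsewhere in NCBIM37 that covered at least 80% of their length at 95% identity or more, including 5 of the 7 Sm genes (Snrpd1, Snrpd2, Snrpe, Snrpf and Snrpg), Snrpc, Sf3b4, Srsf3 with Sfrs3, Srsf5 and Srsf10. Values of these members are uncertain to that extent. Snrpb and Snrpd3, the Sm genes with no such copy, were at 175 and 106 FPKM and at 222 and 139 FPKM in wild type and knockout at E13.5, in the same direction as the others. Their differences were smaller than those of Snrpe, Snrpd2 and Snrpg, and near those of Snrpd1 and Snrpf. The part of copies was not tested.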

How the data were processed

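RNA was sequenced from 21 libraries in 10 groups (TruSeq, paired reads of 101 bp). The authors aligned reads to mm9 with TopHat2 and estimated expression with Cufflinks 2.0.2 and Cuffdiff2. They deposited 3 tables in FPKM, with 1 value per group, pooled over libraries and normalised separately for each table. Columns of values per library were 0 in number, so depth and the spread between libraries are unknown. The tables also hold the authors' fold changes, test statistics, p-values and q-values, which were not used.

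Differences were taken as log2(FPKM + 1) within a table with numpy 2.4.6 and pandas 2.3.3, for entries with a mean of at least 1 FPKM. No test was possible with 1 value per group. The calculation was tested on simulated tables with known answers. Table starts, which count from 0, were moved by 1, and GENCODE and NCBIM37, which match the build of the files, gave lengths and coding sequences. Copies were sought with BLAST 2.17.0. Promoters came from RefSeq (GRCm38.p6), and no coordinates were converted between builds. Values are given for members past the fold, for the 3 highest and 3 lowest differences of a comparison and for the highest and lowest level of each class, and for at most the 2 highest and 2 lowest genes of other lists. Members, classes and lists were chosen with earlier results of these data known, and the split of the SR entries was made after the tables were read.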

Additional observations from a re-analysis of the deposited data

How the results depend on the processing

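No paired analysis was possible because the tables hold 1 pooled value per group, and leaving out a library could not be run for the same reason. Of 135 alternatives tried on the members' medians and on their counts past the fold, 107 were labelled the same, 27 moved and 1 reversed. A count took members past the fold higher and lower together, so its label did not register a change of direction. When groups were rescaled to the same sum, 7 higher and 12 lower at E13.5 became 15 and 9. In the knockout step to E15.5, 6 and 0 became 3 and 3. Both counts were labelled the same. The only result labelled reversed was the median at E13.5, from -0.06 to 0.13 when groups were rescaled to the same sum. Without members that overlap another named entry (17 or 18 left), that median was -0.17, the median of the wild type step from E13.5 to E15.5 was -0.25 rather than -0.13, and that of the wild type step to P7 was -0.83 rather than -0.99. Rescaling moved the median of the knockout step to E15.5 from -0.15 to -0.33 and that of the knockout step to P7 from -1.10 to -0.97, and centring on all entries moved the wild type step to P7 to -0.89.

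Counts past the fold without overlapping members were 2 in place of 7 for Peril, 0 in place of 1 for Fendrr, 8 in place of 19 at E13.5, 0 in place of 1 at E15.5, 5 in place of 13 at P7, and 1 in place of 4, 3 in place of 6, 13 in place of 31 and 17 in place of 34 in the age steps (wild type and knockout to E15.5, then to P7). With the larger fold (1.5 between genotypes, 2 between ages) the counts were 0 for Peril, Fendrr, E15.5, P7 and the wild type step to E15.5, 11 at E13.5, 3 for the knockout step to E15.5 and 19 for the wild type step to P7. Fendrr gave 2 with a pseudocount of 0.1 and 3 when rescaled, E15.5 gave 0 with a mean of at least 5 FPKM, and the knockout step to E15.5 gave 3 after centring by transcript length, an alternative chosen after seeing the data. The cause of these shifts was not tested, except that fewer members enter without overlaps.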
